A study of Homo sapiens with 12 samples.

Results

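Epithelial-mesenchymal transition (EMT) is the programme by which epithelial cells loosen their junctions and take on the filaments and matrix of motile cells. The genes followed here are 10 that mark or drive it, namely the cadherins CDH1, CDH2 and CDH6, the filament gene VIM, the matrix gene FN1, and the transcription factors ZEB1, ZEB2, SNAI1, SNAI2 and TWIST1. They were found by gene symbol and make up 10 of the 58051 genes in each count table. Cadherins join neighbouring cells through catenins, and the ZEB, SNAI and TWIST factors are known as repressors of CDH1 or as drivers of the mesenchymal state. In the kidney, CDH6 and CDH2 are cadherins of the proximal tubule, from which clear cell tumours are thought to arise.

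The 12 RNA-seq libraries came from 3 established human renal carcinoma lines. 786-O and A-498 cells received a miR-29 mimic, a synthetic duplex that raises the activity of the microRNA, or a control mimic. ACHN cells received a miR-29 inhibitor or a control inhibitor. All were transfected at 10 nM, and RNA was taken after 48 h. There was 1 library per group in 786-O, 2 per group in A-498 and 3 per group in ACHN. The labels name the mimic only as miR-29, and the study elsewhere calls it a miR-29b mimic. Libraries of a group are biological replicates by the study's methods, which say no more of how they were kept apart, and p-values measure the spread between them. The study set further A-498 libraries aside for possible mislabelling, and those were not analysed here. Mimic and inhibitor were never given to the same line, so agent and line cannot be told apart.

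Between 39919554 and 70027392 read pairs per library were counted in genes. Rows that name no gene, whatever the reason, held 37.25% to 48.0% of all pairs tallied. The kidney lineage factor PAX8 was at 69.0 to 643 CPM (counts scaled to a library total of 1000000) across the libraries. Other kidney tumour markers were lower, with PAX2 at 1.25 to 46.6, LHX1 at 5.17 to 29.9 and CDH16 at 1.49 to 6.85 CPM. CUBN was at 0.226 to 3.01, CA9 at 0.0143 to 11.7 and NDUFA4L2 at 0.0488 to 2.50 CPM, and LRP2 stayed at or under 0.172 CPM. The T cell marker CD3E and the endothelial markers PECAM1, VWF and CDH5 stayed at or under 0.244 CPM. Of 5 leukocyte markers ITGAM reached 7.12 CPM, and of 6 endothelial markers TIE1 reached 12.2 CPM in 786-O. The epithelial keratins KRT8 and KRT18 were at 479 to 1899.6 and 141 to 1165 CPM over all libraries, and KRT19 at 8.70 to 434 CPM. EPCAM was at 39.9 to 52.4 CPM in ACHN, but at or under 1.33 CPM in 786-O and 0.787 CPM in A-498.

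MicroRNAs of the miR-29 family pair with target 3′ UTRs mainly through the seed, nucleotides 2 to 8, which all 3 members share. The mature sequences, from RefSeq on GRCh38.p14, are shown with the seed in capitals because the search for matches below rests on it.
hsa-miR-29a-3p: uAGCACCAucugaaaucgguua
hsa-miR-29b-3p: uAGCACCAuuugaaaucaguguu
hsa-miR-29c-3p: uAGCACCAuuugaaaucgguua
A full match to nucleotides 2 to 8 reads TGGTGCT in the transcript's DNA letters. None of the 10 genes held this match, or the 7mer-A1 form of it, in its longest annotated 3′ UTR or in that of its MANE Select transcript. Among 19246 protein-coding genes 15.0% held the full match, and 17.8% did when 7mer-A1 matches were counted too. CDH1 and SNAI1 each held a single match of 6 bases, GGTGCT, given in capitals within its surroundings.
CDH1, chr16:68835426-68835431, plus strand: tacatgtgtgGGTGCTgataattgtgta
SNAI1, chr20:49988691-49988696, plus strand: gcccaagtggGGTGCTctggtctgaccg
The CDH1 match lies 1927 nt past the stop codon and the SNAI1 match 635 nt past its own, in GRCh38 coordinates. A match is a description of the letters and not evidence of a bound site.

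In the control libraries ACHN differed from the other lines in which cadherins it carried. CDH1 (E-cadherin, chr16:68737292-68835537) was at 7.67, 6.16 and 7.06 CPM in the ACHN controls. It was at 0.397 and 0.215 CPM in the A-498 controls and at 0.0445 CPM, or 2 counts, in the 786-O control. All ACHN libraries lay above all libraries of the other lines. CDH6 (K-cadherin, chr5:31193686-31329146) ran the other way, at 489.6 CPM in 786-O and at 479.6 and 523 CPM in A-498. In the ACHN controls it had 5, 4 and 4 counts, about 0.0995 CPM on average. The plain CPM ratio of A-498 to ACHN controls was 5038 (95% Clopper-Pearson interval 2946 to 9462), an interval that covers counting error alone. CDH2 (N-cadherin, chr18:27932879-28177946) was at 457 CPM in 786-O, at 341 and 355 CPM in A-498 and at 300.2, 298 and 296 CPM in ACHN.

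Scaled by length, as CPM per kb of merged exons, the cadherins could be set beside each other. CDH2 made up 78.2% ± 0.262 (SD, n = 3) of the summed level of 22 cadherin genes in the ACHN controls, and CDH1 2.58% ± 0.281. In the A-498 controls CDH2 and CDH6 took close shares, 43.4% ± 0.558 and 43.1% ± 0.927 (SD, n = 2). In the 786-O control they took 49.5% and 36.6%. With MANE Select lengths in place of merged exons the A-498 shares were 53.2% and 36.0%, so the order of that pair depends on the length used.

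**Figure D1:**
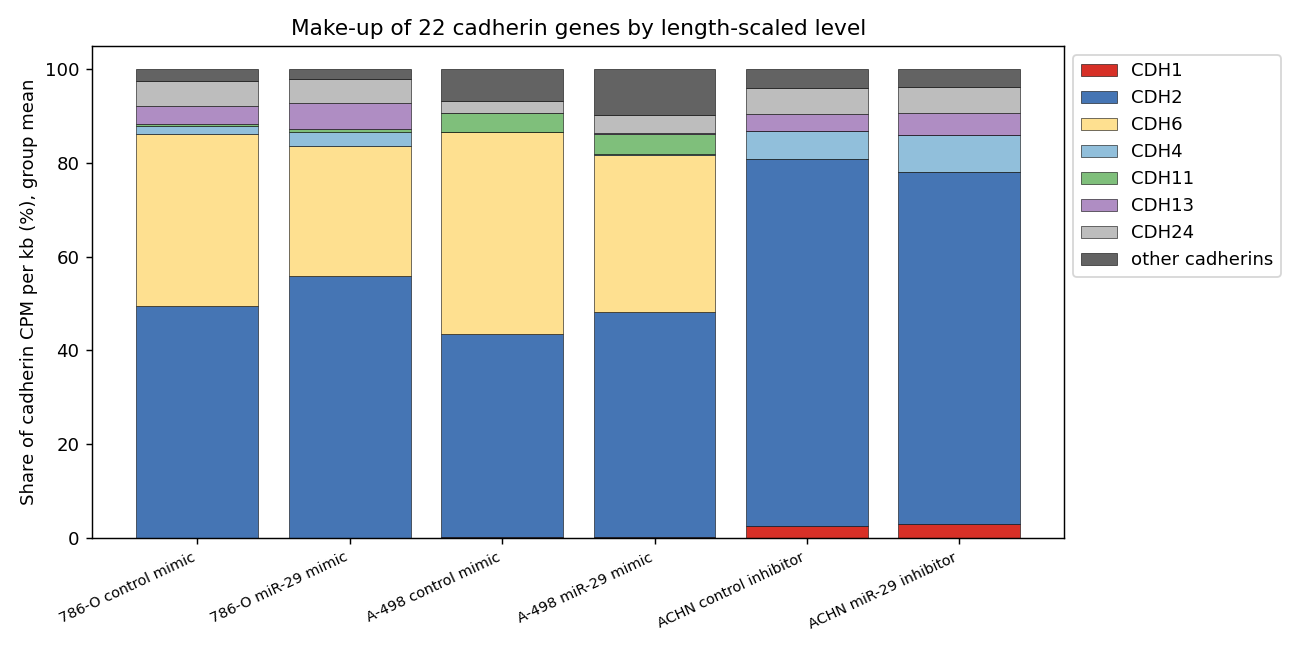
Stacked bars give each group's mean share, in percent, of the summed CPM per kb of merged exons over 22 cadherin genes, 1 bar per group of 1 to 3 libraries. CDH6 fills 43.1% of the A-498 control bar and is not visible in ACHN, where CDH2 fills 78.2%.

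In the 786-O and ACHN controls the matrix and filament genes were the most abundant of the 10. In the A-498 controls FN1 lay below CDH2 and CDH6 per kb of merged exons, at 29.8 against 40.6 and 40.3. With MANE Select lengths FN1 lay between CDH2 and CDH6. VIM (vimentin, chr10:17228241-17237593) was at 3928 CPM in the 786-O control, at 1738 and 1687 CPM in A-498 and at 1909, 2106 and 2149 CPM in ACHN. FN1 (fibronectin, chr2:215360440-215436073) was at 6051 CPM in 786-O, at 525 and 500.1 CPM in A-498 and at 2362, 2468 and 2454 CPM in ACHN. Per kb, VIM ranked first of the 10 in every line, with 759, 331 and 397 CPM per kb in 786-O, A-498 and ACHN.

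Among the transcription factors, SNAI1 and SNAI2 ranged more widely over the lines than ZEB1 and ZEB2 did. SNAI1 (Snail, chr20:49982980-49988886) was at 26.2 CPM in the 786-O control, at 35.2 and 31.7 CPM in A-498 and at 0.987, 1.84 and 1.28 CPM in ACHN. SNAI2 (Slug) was at 24.3 CPM in 786-O, at 6.59 and 7.15 CPM in A-498 and at 1.09, 0.908 and 0.827 CPM in ACHN. ZEB1 (chr10:31318495-31529814) and ZEB2 (chr2:144364364-144521057) spanned a narrower range, 26.6 to 55.1 CPM and 31.5 to 78.4 CPM over the control libraries. TWIST1 (chr7:19020991-19117636) had 1 count in each of 2 A-498 libraries and 0 in the other 10, where a count of 0 allows up to 0.0428 to 0.0752 CPM.

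The control libraries were compared in 1 edgeR fit, with a call at an adjusted p under 0.05 and a difference of at least 2-fold, and 9 of the 10 genes could be tested. Between A-498 and ACHN 5 of 9 were called, beside 37.8% of all genes tested. In A-498, CDH6 (log2 difference 12.23 ± 0.09 SE), SNAI1 (4.60 ± 0.10) and SNAI2 (2.83 ± 0.13) were higher, and CDH1 (-4.54 ± 0.20) and FN1 (-2.27 ± 0.05) lower. Between 786-O and A-498 6 of 9 were called, beside 45.7% of all genes, with FN1 (3.68 ± 0.06), SNAI2 (1.94 ± 0.11), ZEB2, VIM and ZEB1 higher in 786-O and CDH1 lower. CDH6 differed by 0.08 ± 0.06 (edgeR adjusted p = 0.18) between these lines, so their order was not resolved. Between 786-O and ACHN 6 of 9 were called, beside 43.7% of all genes, and VIM (1.03 ± 0.06) lay just past the 2-fold limit and ZEB1 (0.62 ± 0.07) below it. The single 786-O library has no spread of its own, so these tests borrow that of the other lines. The ACHN controls had received a control inhibitor and the others a control mimic, so that control and line cannot be told apart.

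**Figure D2:**
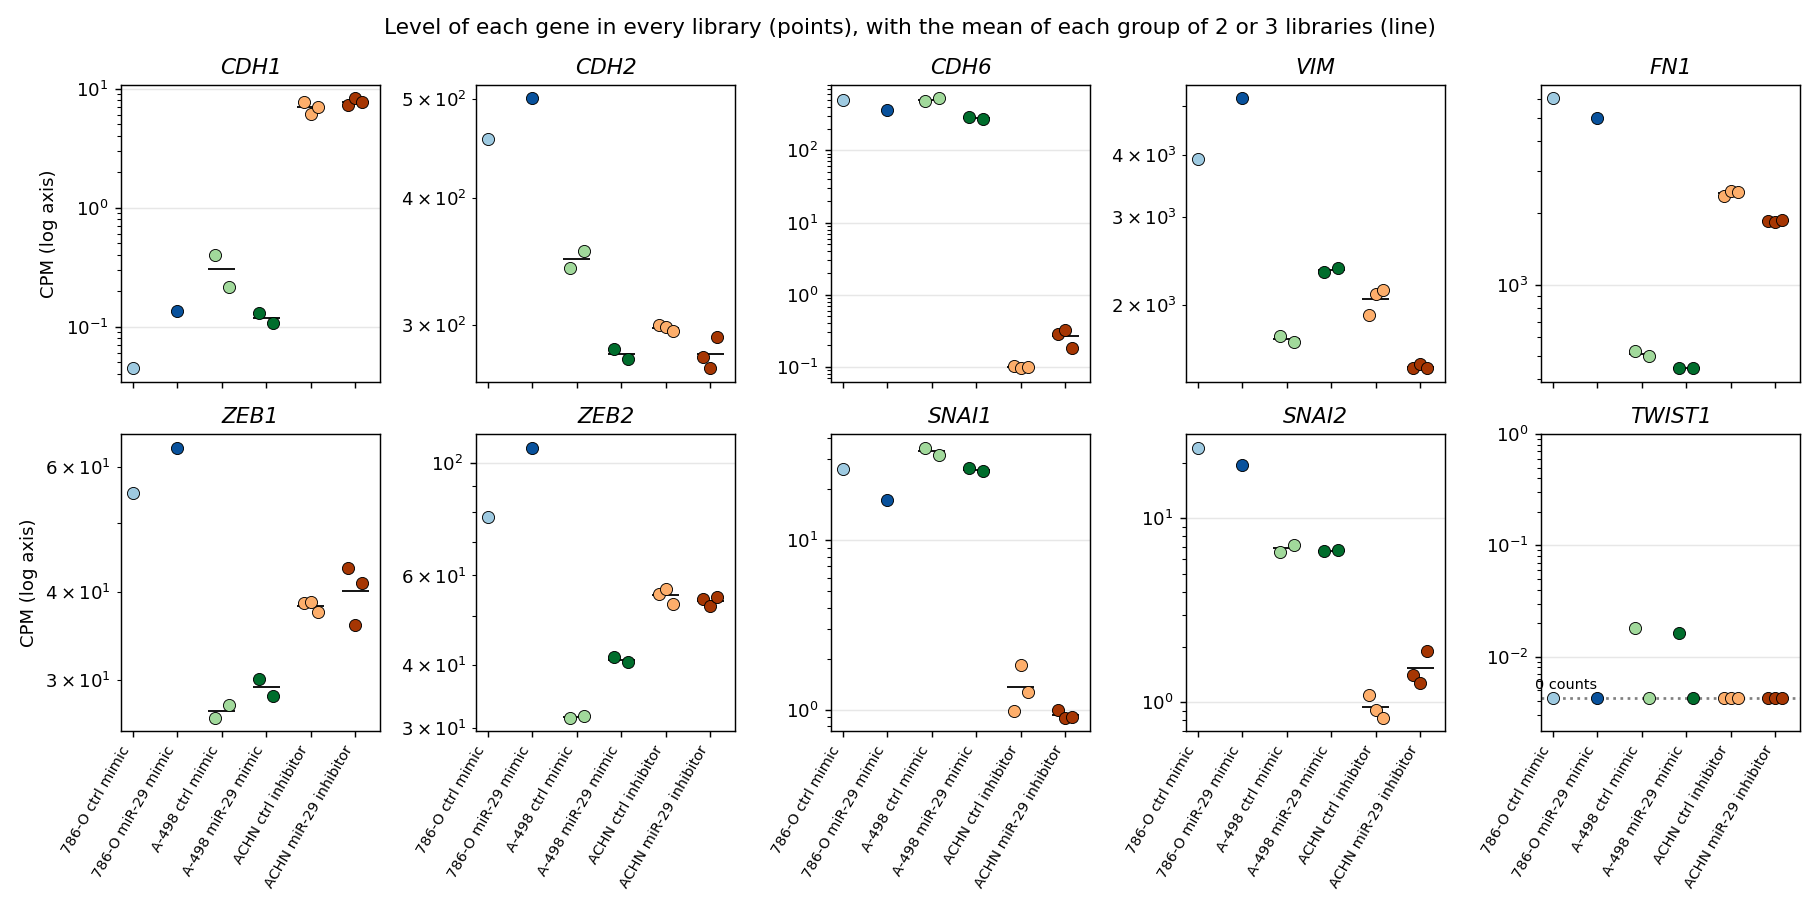
Each panel plots 1 gene's CPM on a log axis in all 12 libraries, with points for libraries and lines for the means of groups of 2 or 3. ACHN stands apart in CDH1, CDH6, SNAI1 and SNAI2, and the TWIST1 points lie on the 0 count line in 10 libraries.

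The mimic in A-498 was followed by lower CDH6, CDH2, SNAI1 and FN1 and by higher VIM and ZEB2. Of 9 genes tested 5 were lower and 2 higher at an edgeR adjusted p under 0.05, and 27.0% and 25.5% of all 19676 genes tested moved down and up. The median log2 fold change was -0.28 over the 9 genes and 0.00 over all. Library-size scaling in place of TMM shifted the median of all genes to 0.08 and turned the split of calls from 5313 lower and 5015 higher to 4354 lower and 6188 higher. The summed level of 8 kidney tumour markers moved too, from 104 and 109 CPM in the controls to 177 and 185 CPM with the mimic, and that of 5 leukocyte markers from 2.72 and 3.10 CPM to 5.01 and 5.37 CPM, with CD3E at or under 0.0191 CPM. Among these markers PAX8 rose from 72.7 ± 5.22 to 134.9 ± 3.75 CPM, CUBN, an endocytic receptor of the proximal tubule, by 0.85 on the log2 scale, and the leukocyte integrin gene ITGAM by 0.90. The epithelial markers EPCAM, KRT8, KRT18 and KRT19 summed to 1752 to 1900 CPM in the controls and to 2660 to 2761 CPM with the mimic. KRT8 went from 1070 to 1571 CPM and KRT18 from 745 to 1130 CPM on average. KRT19 was called lower (log2 fold change -0.28, edgeR adjusted p = 0.018), and EPCAM was called higher at or under 0.787 CPM. The part of these markers in the results was not tested.

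CDH6 had the largest well-counted change. It fell from 479.6 and 523 CPM to 291 and 275 CPM, with no overlap (log2 fold change -0.90 ± 0.04 SE, edgeR adjusted p = 7.7e-10). CDH2 went from 341 and 355 to 285 and 278 CPM (-0.38 ± 0.04, adjusted p = 7.4e-07 in edgeR). The mimic libraries of both cadherins lay below both controls, and per kb CDH2 stood at 48.2% and CDH6 at 33.5% of cadherin level with the mimic. CDH1 had 22 and 13 counts in the controls and 8 and 6 with the mimic (-1.41 ± 0.49, edgeR adjusted p = 0.026). DESeq2 gave CDH1 an adjusted p of 0.18. Its edgeR adjusted p was 0.32 without control replicate 1 (log2 fold change -0.93), 0.060 without mimic replicate 1 and 0.11 without mimic replicate 2.

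VIM and FN1 moved in opposite directions in A-498. VIM rose from 1738 and 1687 CPM to 2329 and 2374 CPM (0.38 ± 0.03, edgeR adjusted p = 7.3e-08). FN1 fell from 525 and 500.1 CPM to 447 and 445 CPM (-0.28 ± 0.04, edgeR adjusted p = 1.6e-05). Among the factors, SNAI1 fell from 35.2 and 31.7 CPM to 26.5 and 25.6 CPM (-0.43 ± 0.06, edgeR adjusted p = 4.1e-05). ZEB2 rose from 31.5 and 31.8 CPM to 41.5 and 40.4 CPM (0.30 ± 0.05, edgeR adjusted p = 0.00023). Neither ZEB1, at 0.03 ± 0.06, nor SNAI2, at -0.12 ± 0.09, passed the test. In CPM, which carries no TMM factor, ZEB1 was at 26.6 and 27.7 in the controls and at 30.2 and 28.5 with the mimic, with no overlap.

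In 786-O, with 1 library per group, the pair has no spread of its own, so no test was run within the line and values are read against a 1.5-fold limit. SNAI1 alone of 8 genes with enough counts passed it, from 26.2 to 17.2 CPM, a log2 ratio of -0.63 (95% counting interval -0.76 to -0.50). Over all 20370 genes 19.0% passed it downward and 15.7% upward. CDH6 went from 489.6 to 361 CPM (-0.46), FN1 from 6051 to 5001 CPM (-0.30) and SNAI2 from 24.3 to 19.4 CPM (-0.34). VIM went from 3928 to 5180.0 CPM (0.37), ZEB2 from 78.4 to 107 CPM (0.43), ZEB1 from 55.1 to 63.9 CPM (0.19) and CDH2 from 457 to 501 CPM (0.11). CDH1 had 2 counts in the control and 6 with the mimic, a ratio of 2.98 whose counting interval runs from 0.534 to 30.2.

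Whether the mimic acted on these genes to a like extent in both lines was tested by an interaction term in 1 edgeR fit of 6 libraries, whose spread comes from A-498. CDH2 and CDH6 differed, 2 of 9 genes tested, beside 29.6% of all genes. For CDH2 the effect was 0.54 ± 0.06 higher on the log2 scale in 786-O (edgeR adjusted p = 1.9e-06), and the level was higher with the mimic in 786-O and lower in A-498. For CDH6 it was 0.48 ± 0.07 higher (edgeR adjusted p = 3.9e-05), the log2 values being -0.46 in 786-O and -0.90 in A-498. VIM, at 0.04 ± 0.05, and FN1, at 0.02 ± 0.05, had differences within their errors. CDH1 had the largest difference of the 9, 2.98 ± 1.32, which did not pass (edgeR adjusted p = 0.10) and did with the spread of all 12 libraries (edgeR adjusted p = 0.048). It rests on 2 and 6 counts in 786-O and on 6 to 22 counts per library in A-498. Without A-498 control replicate 1, ZEB1 also passed (0.23, edgeR adjusted p = 0.032).

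The inhibitor in ACHN was followed by lower VIM and FN1 and higher SNAI2. Of 8 genes tested 2 were lower and 1 higher, where 14.4% and 17.3% of all 17904 genes tested moved down and up. VIM fell from 1909, 2106 and 2149 CPM to 1496, 1524 and 1499 CPM (-0.44 ± 0.04 SE, edgeR adjusted p = 5.4e-08). FN1 fell from 2362, 2468 and 2454 CPM to 1846, 1824 and 1877 CPM (-0.38 ± 0.03, edgeR adjusted p = 1.9e-08). All 3 inhibitor libraries lay below all 3 controls for both genes. FN1 was thus lower with the mimic in A-498 and with the inhibitor in ACHN, while VIM was higher with the first and lower with the second.

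The summed levels of kidney tumour, epithelial and endothelial markers moved with the inhibitor too. The 8 kidney tumour markers summed to 185 to 194 CPM in the controls and to 157 to 168 CPM with the inhibitor. Most of each sum was PAX8, which averaged 171 CPM in the controls and 145 CPM with the inhibitor. PAX8 was called lower (-0.23 on the log2 scale, edgeR adjusted p = 0.0005). CDH16 fell too, from a mean of 3.22 to 1.72 CPM. NDUFA4L2, a mitochondrial gene high in clear cell tumours, rose by 0.48 on the log2 scale. The 4 epithelial markers summed to 3321 to 3551 CPM and to 2738 to 2983 CPM. The 6 endothelial markers went from 0.401 to 0.573 CPM up to 0.800 to 1.13 CPM, with TIE1 called (log2 fold change 1.54, edgeR adjusted p = 0.00078) and PECAM1, VWF and CDH5 at or under 0.244 CPM. The 5 leukocyte markers overlapped, at 5.61 to 7.40 and 6.10 to 7.10 CPM. The part of these markers in the results was not tested.

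SNAI2 rose from 1.09, 0.908 and 0.827 CPM to 1.41, 1.28 and 1.91 CPM, or from 33 to 53 counts to 67 to 134 (0.72 ± 0.19, edgeR adjusted p = 0.0067). Without inhibitor replicate 3, the highest library, the change was 0.52 and its edgeR adjusted p 0.058. SNAI1 was at 0.987, 1.84 and 1.28 CPM in the controls and at 1.00, 0.897 and 0.900 CPM with the inhibitor, and the groups overlapped (-0.53 ± 0.20, edgeR adjusted p = 0.056). Without control replicate 1 its log2 fold change was -0.73 (edgeR adjusted p = 0.0096), and without control replicate 2, the highest library, it was -0.26 (edgeR adjusted p = 0.38). With RLE in place of TMM, SNAI1 was just called (-0.53, edgeR adjusted p = 0.0495). CDH1, at 7.25, 8.27 and 7.65 CPM with the inhibitor, overlapped its controls (0.16 ± 0.09, edgeR adjusted p = 0.23). CDH2 (-0.07 ± 0.04), ZEB1 (0.08 ± 0.06) and ZEB2 (-0.02 ± 0.04) did not pass the test either, though ZEB1 did without inhibitor replicate 2 (0.15, edgeR adjusted p = 0.0088). CDH6 was removed by the filter on low counts, with 5, 4 and 4 counts in the controls and 18, 17 and 13 with the inhibitor, and without the filter its log2 fold change was 1.39 (edgeR adjusted p = 0.020). DESeq2 gave it 1.41 with no adjusted p, and in the leave-one-out fits that kept it the edgeR adjusted p ran from 0.016 to 0.064.

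**Figure D3:**
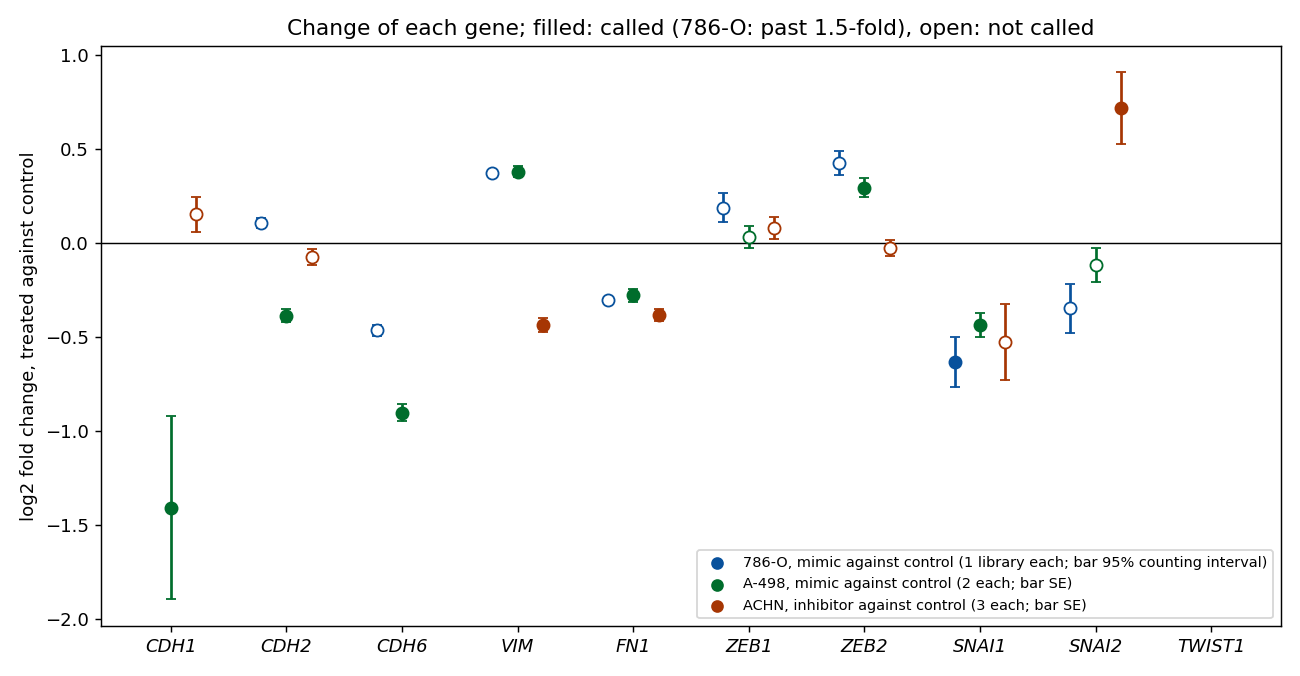
Points give the log2 fold change of each gene, treated against control, in 786-O (bars, 95% counting interval), A-498 and ACHN (bars, SE), filled where called. VIM is at 0.37 and 0.38 with the mimic and at -0.44 with the inhibitor, while FN1 is below 0 in all 3 lines.

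Other genes of the same programme were read from lists, whose counts stand beside the shares of all genes that fell or rose, 27.0% and 25.5% under the mimic in A-498 and 14.4% and 17.3% under the inhibitor, with a median log2 fold change of 0.00 over all genes in either line. A share near these is no result about a list. Of 29 mesenchymal genes, 24 were tested in A-498, where 16 (66.7%) fell and 4 (16.7%) rose (median -0.85), and 21 in ACHN, where 2 (9.52%) fell and 15 (71.4%) rose (median 0.37). SPARC, a matrix glycoprotein, fell from 2349 ± 10.5 to 486 ± 5.07 CPM (SD, n = 2) in A-498 and rose from 364 ± 10.7 to 1582 ± 37.0 CPM (SD, n = 3) in ACHN. LOX, a collagen crosslinking enzyme, fell by 2.19 on the log2 scale in A-498, and the collagen gene COL1A1 rose by 2.48 in ACHN. Of the 8 mesenchymal genes with a full seed match, 6 were tested in A-498 and 6 fell, and 4 were tested in ACHN and 4 rose. Calls were not limited to genes with a match, since of the mesenchymal genes without one 10 of 18 fell in A-498 and 11 of 17 rose in ACHN. Of all genes tested with a full match 54.4% fell in A-498 and 39.6% rose in ACHN, and of those without it 28.9% and 17.7%. VIM and FN1 have no such match, and whether a match goes with the size of a change in this list was not tested.

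Of 28 epithelial genes, 23 were tested in A-498, where 9 (39.1%) fell and 7 (30.4%) rose (median -0.03), and 20 in ACHN, where 7 (35%) fell and 7 (35%) rose (median -0.04). The tight junction gene CLDN1 fell from 49.9 ± 0.375 to 18.0 ± 0.895 CPM (SD, n = 2) in A-498 and rose from 244 ± 0.972 to 500.3 ± 19.9 CPM (SD, n = 3) in ACHN. The keratin KRT7 rose in both, by 1.14 and 0.79 on the log2 scale. Of the 5 epithelial genes with a full seed match, CLDN1 among them, 4 were tested in each line. In A-498 3 of these 4 fell and 0 rose, and in ACHN 0 fell and 3 rose. Of the epithelial genes without a match, 6 of 19 fell and 7 rose in A-498, and 7 of 16 fell and 4 rose in ACHN. Of 13 cadherin-catenin partners, 12 were tested in A-498, where 5 (41.7%) fell and 4 (33.3%) rose (median -0.08), and 10 in ACHN, where 1 (10%) fell and 6 (60%) rose (median 0.17). The p120 catenin gene CTNND1, which stabilises cadherins at the membrane, fell from 182 ± 2.51 to 120.1 ± 3.10 CPM in A-498 (SD, n = 2), and the plakoglobin gene JUP rose by 0.49 there and by 0.50 in ACHN. ARVCF, a catenin of the p120 family with a full seed match, rose from 12.7 ± 0.704 to 18.0 ± 0.740 CPM (SD, n = 3) in ACHN (0.52 on the log2 scale). It also rose in A-498, by 0.33 (edgeR adjusted p = 0.018). In 786-O, with 1 library per group, ARVCF went the other way with the mimic, at a log2 ratio of -1.24, past the 1.5-fold limit. The 3 partners with a full seed match were ARVCF, CTNND1 and VCL. Of these 3, 2 fell and 1 rose in A-498, and 3 rose in ACHN. In 786-O 3 of 3 passed the 1.5-fold limit downward.

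Of 19 other cadherins, 9 were tested in A-498, where 3 (33.3%) fell and 4 (44.4%) rose (median 0.24), and 8 in ACHN, where 1 (12.5%) fell and 3 (37.5%) rose (median 0.18), small counts that differ from those of all genes by few genes. The P-cadherin gene CDH3 fell by 1.15 on the log2 scale in A-498, and CDH16, the kidney-specific cadherin, fell by 0.89 in ACHN. CDH10 rose in both lines. Of 28 other EMT factors and cofactors, 25 were tested in each line, and 10 (40%) fell and 4 (16%) rose under the mimic (median -0.13), while 5 (20%) fell and 4 (16%) rose under the inhibitor (median -0.01), the latter near the shares of all genes. None of its 4 members with a full seed match was called by edgeR in either line. HMGA2, a chromatin protein of mesenchymal tumours, rose from 4.70 ± 0.0913 to 28.7 ± 0.382 CPM (SD, n = 2) in A-498, and SOX4 fell by 0.87 there. In ACHN SOX9 rose by 0.48 and LEF1 fell by 0.46.

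**Figure D4:**
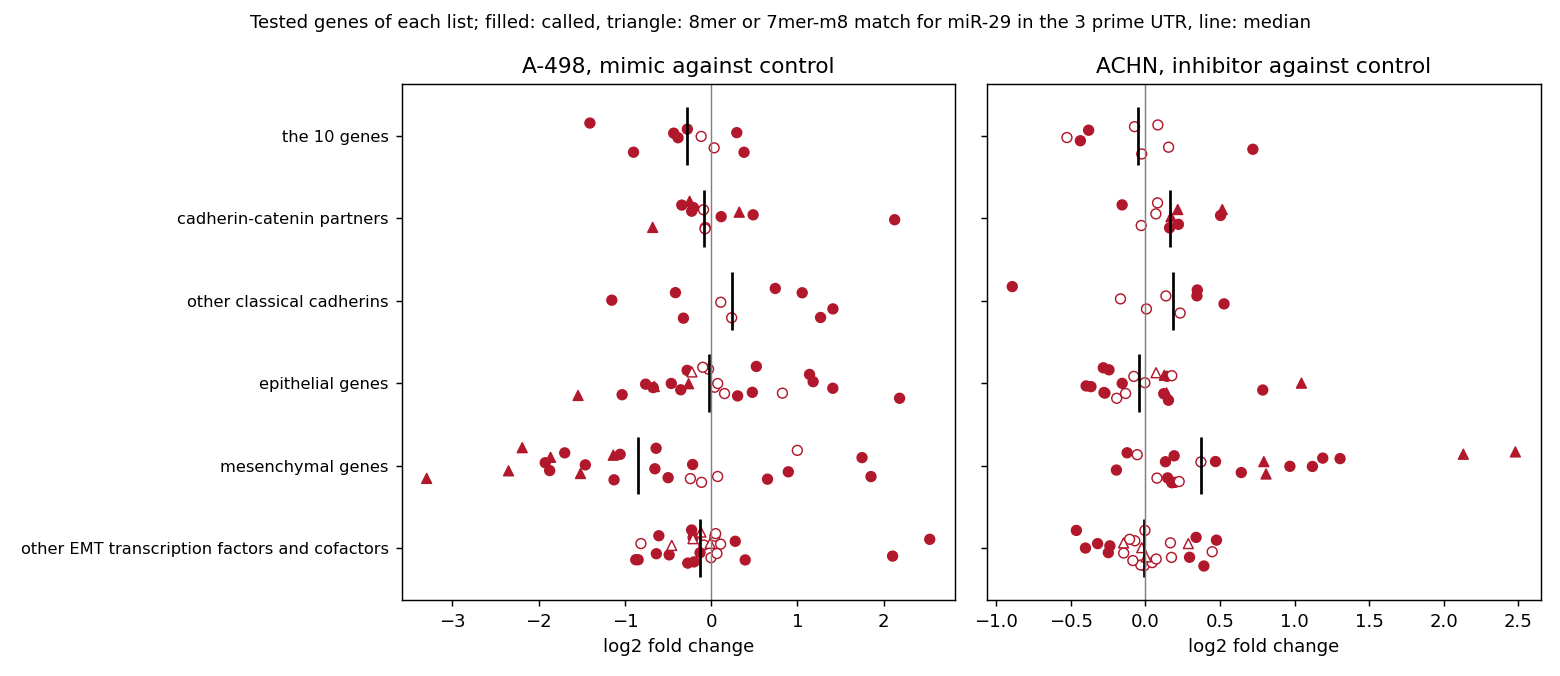
Each point is a tested gene, placed by its log2 fold change in A-498 (left) and ACHN (right), in rows for the 10 genes and 5 lists, filled where called and triangular where its 3′ UTR holds a full seed match, with a line at the median. The mesenchymal median lies at -0.85 in A-498 and at 0.37 in ACHN, and the row of the 10 genes holds no triangle.

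As a description over 12 libraries that share 3 lines, the genes most like each of the 9 detected genes in log2 CPM among 14604 genes had Pearson r of 0.981 to 0.999. GAS6 was most like CDH1, RBBP6 most like CDH2 and TMEM8B most like CDH6. SNHG3 was most like VIM, H3C8 most like FN1, CENPQ most like ZEB1, SHANK2 most like ZEB2, FIRRE most like SNAI1 and TTPAL most like SNAI2.

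Promoter windows of 300 bases were at hand for 5 of the 10 genes, CDH2, VIM, FN1, ZEB1 and ZEB2. The E-box letters CACCTG or CAGGTG, the form SNAI and ZEB proteins bind, were in 2 of 7 windows of ZEB1, with 1 and 3 copies, and in no window of the others, while 20.6% of 35116 windows held one.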

How the data were processed

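Per the labels, total RNA was made into stranded libraries after rRNA depletion, and the authors' processing notes name HISAT2, HTSeq and DESeq2 on GRCh38, and their methods describe counting in the strict intersection mode. The deposited counts are raw reads per Ensembl gene, and rows that name no gene were left out of library sizes. The authors' tables of their own DESeq2 comparisons (fold changes and p-values) were not used.

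Genes were found by symbol, and CPM is the count divided by the library's total gene count. The printed CPM carry no TMM factor, so their ratio can differ from the log2 fold change of the fit. Genes passing filterByExpr were fitted with edgeR 4.0.16 in R 4.3.3 (TMM, quasi-likelihood test, Benjamini-Hochberg adjustment over all genes tested), per line for the treatments, with an interaction for 786-O against A-498, and over the 6 control libraries for levels. Biological coefficients of variation were 3.83% in A-498 and 5.25% in ACHN. In 786-O the log2 ratio of CPM (TMM, prior count 2, at least 10 counts) is given with a Clopper-Pearson interval. Gene models, 3′ UTRs and lengths come from GENCODE 44 on the same build, an annotation later than that of the counts. Reads of overlapping genes on the same strand cannot be told apart.

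All 10 genes are described, and 2 marker genes are not reported here. Of each other list, the 2 called genes of largest change with a mean of at least 1 CPM are named. Some further genes are named where a summed level or a seed match is described. The genes and lists were chosen with earlier results of these data known. The scripts were tested on simulated data. Alternatives were DESeq2 1.42.0, other scalings, no filter, and leaving out each replicate.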

Additional observations from a re-analysis of the deposited data

Results flagged for a closer look

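The effect of the mimic on CDH2 differed between 786-O and A-498 by 0.54 on the log2 scale, and that on CDH6 by 0.48, each by an interaction test that passed the adjusted threshold in edgeR. The 786-O arm has 1 library per group, so the difference rests on that pair. Over 9 alternatives the CDH2 difference ran from 0.43 to 0.57 and the CDH6 difference from 0.33 to 0.54.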

How the results depend on the processing

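Across 517 alternative values for single genes, 486 kept their direction and their side of the threshold, 13 changed sign, 8 lost a call, 6 gained one and 4 moved past their counting interval. None of the 13 was called under either setting, and the cause of the changes was not tested. In the interaction of mimic and line, FN1 became -0.075 under library-size scaling, -0.015 with RLE, -0.0042 with no filter and -0.016 with DESeq2, and ran from -0.057 to 0.017 when each A-498 library was left out, being above 0 without mimic replicate 2. VIM became -0.058 under library-size scaling there, and ran from -0.058 to 0.051 over the left-out libraries, being below 0 without A-498 control replicate 3 or mimic replicate 1. ZEB1 in A-498 ran from -0.018 to 0.076 over the left-out libraries, being below 0 without mimic replicate 1 or control replicate 1, and CDH6 between 786-O and A-498 controls became -0.034 under library-size scaling. In ACHN, 5 of the 10 genes were called with no filter on low counts against 3, since SNAI1 and CDH6 were added. In 786-O, 2 genes passed 1.5-fold with no minimum count against 1, the addition being CDH1 with 2 and 6 counts. Leaving out each replicate gave 6 to 7 calls in A-498 and 3 to 4 in ACHN. The ACHN replicate numbers did not pair libraries (same-number correlations of 0.042, -0.050 and -0.0047), and a replicate block gave 3 calls. No paired analysis was possible in A-498 or 786-O because their groups share fewer than 2 numbers. VIM between 786-O and ACHN controls fell below 2-fold under library-size scaling (0.93), with no filter (0.96) and without ACHN control replicate 1 (0.98). Depth limits CDH1 in 786-O and A-498, CDH6 in ACHN and TWIST1 in all lines, where a few counts set each value.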
